A study of Arabidopsis thaliana with 8 samples.

Results

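Long small RNA loci of the chromosome arms were examined in phloem exudates of Arabidopsis thaliana. A small RNA locus here is a stretch of the genome over which the authors counted sequenced small RNA reads as 1 feature. The loci were chosen by name, length and position, and not by level: loci of the ath-b10r1 series of at least 2000 nt, starting outside the pericentromeric intervals (Chr1 11.5–17.7 Mb, Chr2 1.1–7.2 Mb, Chr3 10.3–17.3 Mb, Chr4 1.5–6.3 Mb and Chr5 9–16 Mb) and overlapping no annotated miRNA. This gave 1632 loci, which was 8.02% of the 20347 loci listed and 12.1% of the 13532 ath-b10r1 loci of the arms that overlap no miRNA. Another 24 long arm loci were left out because they overlap a miRNA. The rDNA locus ath-b10r1-3245 was left out by name. It overlaps a miRNA as well, so it may be among the 24. All plants were wild type Col-0 seedlings, kept in the dark at first to lengthen the hypocotyl and then raised in the light on ½ MS medium with iron. On day 11 they were moved for 3 days to ½ MS without added iron (−Fe, 4 libraries) or to fresh ½ MS with iron (+Fe, 4 libraries). The cut hypocotyls of many pooled rosettes were first held in EDTA, and the exudate was then collected in water with an RNase inhibitor, so each library is a pool of plants and its RNA comes from an acellular fluid rather than from a counted number of cells. Each condition has 4 libraries that the labels call biological replicates, and the p-values measure the spread between these.

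In plants, small RNAs are cut from double-stranded RNA by Dicer-like enzymes and guide Argonaute proteins to matching RNA or DNA. Many siRNAs come from transposons, repeats and pseudogenes, where they direct DNA methylation and where small RNAs can arise along a long stretch rather than from 1 hairpin. Such loci are concentrated around the centromeres and are scattered along the gene-rich arms, where fragments of abundant mRNAs, tRNAs and snoRNAs can also be gathered into a locus. Small RNAs move through the phloem between shoot and root, and the study asked whether those in phloem sap change under iron deficiency.

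The libraries held 10347644 to 14116739 counts, and a count of 0 allowed a level of up to 0.213 to 0.290 CPM (counts per 1000000 counts of the library), which covers counting error only since PCR copies were not told apart. Loci that overlap a gene for tRNA, rRNA, snRNA or snoRNA took 77.8 to 86.2% of the counts of a library. All counts of such a locus are included, also those beside the gene. Libraries 2 and 4 of the +Fe group stood apart, with 12117 and 11269 loci counted, against 14214 to 16201 in the 4 −Fe libraries and 14585 and 14291 in +Fe libraries 1 and 3. Values that moved by over 1.5 times without these libraries are therefore also given without them, a choice made after the data were seen. Cell type markers were read as small RNA counts of every locus that overlaps the gene, not as mRNA levels. Such a locus can also overlap a neighbouring gene. Of 9 genes that mark phloem cells, SUC2 and OPS had counts, together 0.506 to 3.71 CPM in −Fe and 0 to 2.05 CPM in +Fe exudates. The other 7, among them APL and SEOR1, overlapped no listed locus, so no count is available for them. All 10 mesophyll markers had counts, summing to 187 to 323 CPM in −Fe and 191 to 369 CPM in +Fe exudates. Of the 4 xylem genes, IRX3 and XCP1 overlapped no listed locus. Counts at XCP2 and IRX5 summed to 29.6 to 59.5 CPM in −Fe and 47.3 to 86.7 CPM in +Fe exudates. Nearly all of these lay at XCP2, with 5209 counts over the 8 libraries against 85 at IRX5. The part of these cell types in the results below was not tested, and in bulk samples fewer cells of a type and less RNA per cell cannot be told apart.

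The long arm loci were mostly not far above the length limit. Their median length was 2584.5 nt (quartiles 2239 and 3292.25 nt), and 1106 of them (67.8%) were under 3000 nt, while 148 reached 5000 nt and 8 reached 10000 nt. They lay on all 5 chromosomes, with 436, 243, 310, 284 and 359 loci on chromosomes 1 to 5, and covered 5026.96 kb in sum. At the edge of the rule, ath-b10r1-10544 and ath-b10r1-1456 were 2000 nt long with 1917 and 772 counts over the 8 libraries, and ath-b10r1-19345 and ath-b10r1-14248, at 1999 nt, had 111 and 1815 counts. Reads from near-identical repeats, and from genes that overlap on opposite strands, cannot be told apart in these counts.

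Protein-coding genes were the most common neighbours. In the RefSeq gene table of the TAIR10.1 assembly, 1292 of the 1632 loci (79.2%) overlapped a protein-coding gene and no gene for a tRNA, snRNA or snoRNA. A further 158 (9.68%) overlapped a pseudogene but neither of these, 30 (1.84%) overlapped a tRNA, snRNA or snoRNA gene, 16 overlapped another non-coding gene alone and 136 (8.33%) overlapped no listed gene. By position against coding gene spans, introns and UTRs included, 563 loci (34.5%) lay wholly inside 1 or more spans, 757 lay partly in one and 312 (19.1%) lay outside all of them. This division by coding span was chosen after the values were seen, and it is described here without a test.

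The level of the loci was uneven. The 1632 loci together held 1413802 counts, or 1.46% of all counts, and a locus had a median of 337.5 counts over the 8 libraries (quartiles 104 and 1030.25), or 114 counts per kb. The 10 loci with the most counts held 13.9% of this sum, and the top 167 loci (10.2%) held 50% of it. At the other end, 32 loci had fewer than 10 counts and 5 had none. Longer loci tended to have more counts per kb, with a Spearman rho of 0.256 across the 1632 loci, which share libraries and are not independent.

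The locus with the most counts, ath-b10r1-19874 (TAIR10, chromosome 1, 28526374–28529492), spans the tRNA gene AT1G76000 and parts of 2 coding genes beside it. It had 332, 481, 641 and 635 CPM in the −Fe libraries, against 530, 702, 603 and 534 CPM in the +Fe libraries. The groups overlapped, and the lowest value of all was that of −Fe library 1. Both snoRNA loci of the top group were far steadier. The locus ath-b10r1-9677 (chromosome 3, 17445019–17447076), with 6 snoRNA genes and part of HSD2, a hydroxysteroid dehydrogenase gene, had 266, 259, 219 and 253 CPM in −Fe exudates, against 289, 249, 230 and 228 CPM in +Fe exudates. The snoRNAs of such clusters guide the chemical modification of rRNA. The steadiest of all was ath-b10r1-8007 (chromosome 3, 8976690–8979746), with 3 snoRNA genes, at 161 ± 7.61 CPM in −Fe and 154 ± 7.23 CPM in +Fe libraries (SD, n = 4 each).

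The locus with the second most counts, ath-b10r1-6922 (chromosome 3, 1963250–1971156), is 7907 nt long and holds the neighbouring genes AT3G06435, AT3G06436 and AT3G06437 with several non-coding RNA genes. It had 388, 710, 515 and 351 CPM in the −Fe libraries, against 293, 440, 518 and 505 CPM in the +Fe libraries, so that the values of the groups were interleaved. Its log2 fold change, −Fe over +Fe, was 0.35 (SE 0.20, edgeR adjusted p = 0.717). The locus ath-b10r1-14534 (chromosome 5, 22321812–22323818), with AT5G55010, ranged 79.2 to 236 CPM in −Fe and 116 to 253 CPM in +Fe libraries. Library 2 was the highest in both groups there, and the groups overlapped over nearly all of their range. The other loci of the top 10 were ath-b10r1-2961 at a tRNA gene beside CIB22, which encodes a subunit of mitochondrial complex I, ath-b10r1-10211 at LAF3, a gene of phytochrome A signalling, ath-b10r1-10985, ath-b10r1-11917 and the pseudogene locus ath-b10r1-19068. They averaged 64 to 117 CPM in −Fe and 88.8 to 118 CPM in +Fe libraries. Of the 10 loci with the most counts per kb, 8 were among these, and the other two were ath-b10r1-8198 (chromosome 3, 10006550–10008940; AT3G27140) with 3146 counts per kb and ath-b10r1-8204 (chromosome 3, 10030222–10032270; no listed gene) with 2954 counts per kb.

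**Figure D1:**
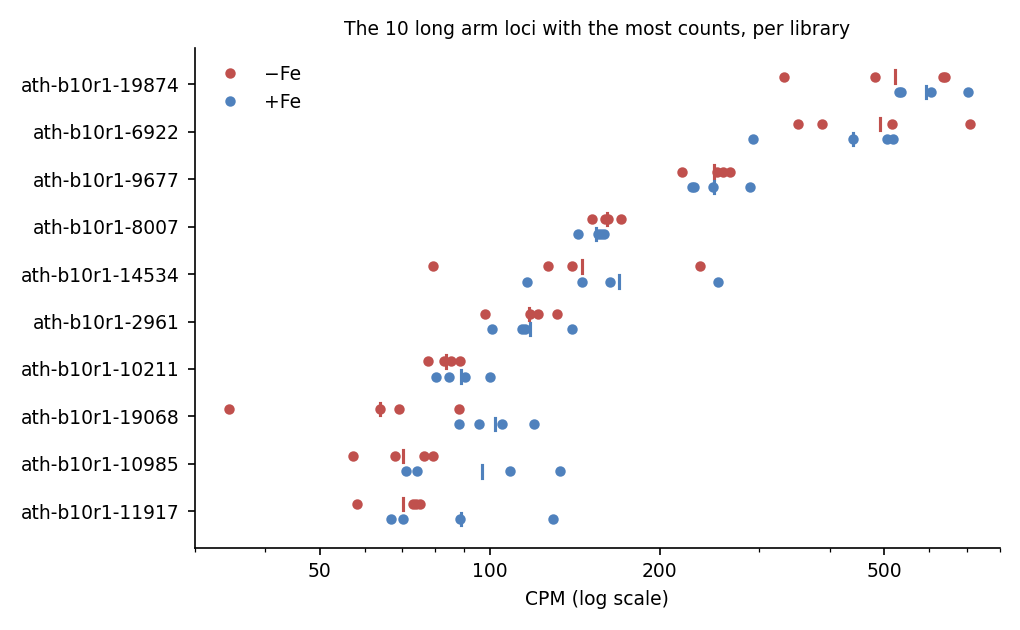
CPM (x axis, log scale) of the 10 long arm loci with the most counts, 1 row per locus, with 4 −Fe libraries (red, upper points) and 4 +Fe libraries (blue, lower points) and a short line at each group's mean. The 2 groups overlap at all 10 loci, and ath-b10r1-8007 spreads least, between 143 and 170 CPM.

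The longest locus, ath-b10r1-18862 (chromosome 1, 21746610–21759710), runs over 13101 nt and lies wholly inside the span of AT1G58602. It had 24.8, 30.7, 26.2 and 13.9 CPM in −Fe libraries, against 30.5, 25, 42.4 and 18.9 CPM in +Fe libraries. The groups overlapped, and library 4 was the lowest of each. The next longest were ath-b10r1-8112 (chromosome 3, 9613080–9625728), ath-b10r1-11566 (chromosome 5, 7027395–7039777), ath-b10r1-16575 (chromosome 1, 9572120–9584108) and ath-b10r1-1926 (chromosome 4, 9068700–9079596), all of at least 10897 nt. Of these, ath-b10r1-11566 covers 4 pseudogenes and a small part of AT5G20790 and was the highest, at 37.0 ± 7.82 CPM in −Fe and 54.6 ± 8.24 CPM in +Fe libraries (SD, n = 4 each; exact permutation p = 0.0571). None of the 5 longest passed an unadjusted edgeR p of 0.05. In density they ranged from 102 to 355 counts per kb, and 4 of them lay above the median of 114 over all long arm loci.

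Loci outside coding spans were the denser and the more regularly counted. Those outside had a median of 273 counts per kb and those partly inside 164, while those wholly inside coding spans had 42.4. The inside loci were 34.5% of the loci but held 10.2% of the counts, whereas the outside ones were 19.1% of the loci and held 28.7%. By annotation, loci at pseudogenes had a median of 253 counts per kb, those with no listed gene 282, those at tRNA, snRNA or snoRNA genes 291 and those at protein-coding genes 81. Across the 1632 loci, the percentage of a locus within coding spans and its counts per kb had a Spearman rho of −0.572, as a description.

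Density was lower farther from the pericentromeric intervals. The 277 loci within 1 Mb of an interval had a median of 215 counts per kb, the 383 loci at 1 to 3 Mb had 139 and the 972 loci farther out had 85.0. The share of loci lying wholly inside coding spans was 20.2, 28.7 and 40.8% in the same order, so that distance and gene content moved together.

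Set against other loci in the same libraries, the long arm loci were denser than short arm loci. Their median CPM per kb was 1.11, 1.44, 1.13 and 1.00 in the −Fe libraries and 1.07, 1.27, 1.18 and 1.03 in the +Fe libraries. For the 11900 arm loci under 2000 nt it was 0.912, 1.30, 1.05 and 0.777 in −Fe and 0.929, 0.0926, 0.939 and 0 in +Fe libraries. The long loci were higher in all 8 libraries, by 0.405 ± 0.434 CPM per kb (SD of the difference, n = 8; exact sign-flip permutation test, two-sided, p = 0.00781, the smallest it can give). Without +Fe libraries 2 and 4, in which the median of the short loci was close to 0, the difference was 0.173 CPM per kb in 6 of 6 libraries (exact permutation p = 0.0313, again the smallest possible). The libraries share the loci, so this test covers libraries and not loci. Length both splits the loci and divides their counts, so the measure is not independent of the rule.

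The comparison with the 1984 long pericentromeric loci turned on where the arm was taken to begin. With the intervals as given, the median was 1.15 ± 0.142 CPM per kb at long arm loci and 1.11 ± 0.171 at long pericentromeric loci (SD, n = 8), higher at the arm loci in 6 of 8 libraries by 0.0408 CPM per kb (exact sign-flip permutation p = 0.477). Without +Fe libraries 2 and 4 the difference was 0.0828 CPM per kb, higher at the arm loci in 5 of 6 libraries (exact permutation p = 0.0938). With every interval widened by 1 Mb on both sides, it was 0.976 at the 1355 remaining arm loci and 1.19 at 2261 pericentromeric loci, lower at the arm loci in all 8 libraries by 0.218 CPM per kb (p = 0.00781 by the same permutation test).

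Most long arm loci were counted in every library. Of the 1632, 945 (57.9%) had at least 1 count in all 8 libraries, 211 in 7, 129 in 6, 103 in 5 and 244 in 4 or fewer. All 8 libraries held 33.4% of the short arm loci and 84.2% of the long pericentromeric loci. In each of the 8 libraries taken singly, the share of long arm loci with a count, 71.3 to 93.1%, lay above that of the short arm loci (47.4 to 75.2%) and below that of the long pericentromeric loci (90.1 to 98.8%). These are shares over loci of unequal length and level, given without a test.

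**Figure D2:**
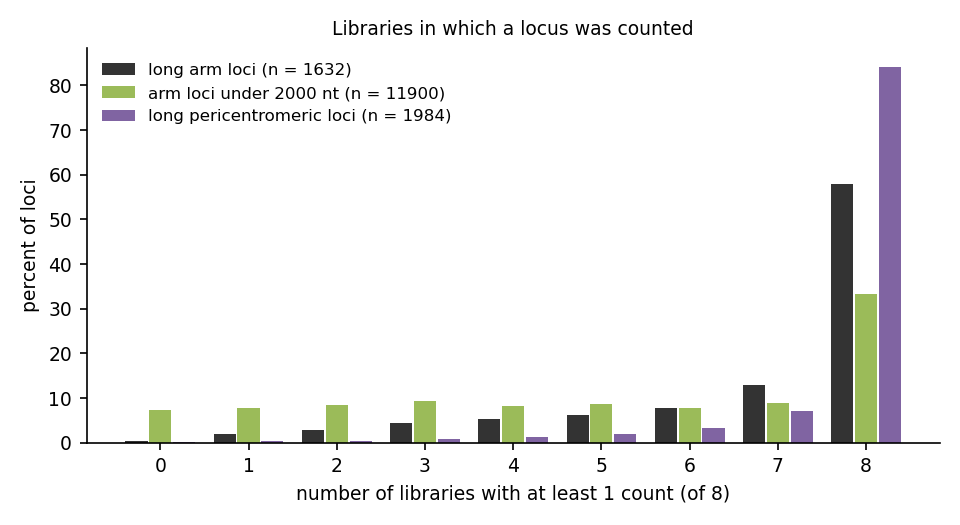
Percent of loci (y axis) by the number of libraries, of 8, in which they had at least 1 count (x axis), for 1632 long arm loci (black), 11900 arm loci under 2000 nt (green) and 1984 long pericentromeric loci (purple). The bar at 8 libraries reaches 57.9% for the long arm loci, between 33.4% and 84.2% for the other two.

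Regular counting differed with the position of the locus in or out of genes. Of the loci wholly inside coding spans, 25.4% were counted in all 8 libraries, against 69.4% of those partly inside and 88.8% of those outside. Spread between replicates had the same order, with a median coefficient of variation of CPM within groups of 1.07 inside, 0.562 partly inside and 0.424 outside. Both measures also differed with level. Loci of 10 to 100 counts had a median coefficient of 1.46, and 1.11% of them were counted in all 8 libraries. For loci of 3000 or more counts these values were 0.253 and 100%. Between 300 and 1000 counts the median coefficient was 0.615 for the 73 inside loci, 0.545 for the 240 partly inside and 0.482 for the 126 outside. The part of level in the difference by position was not tested.

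**Figure D3:**
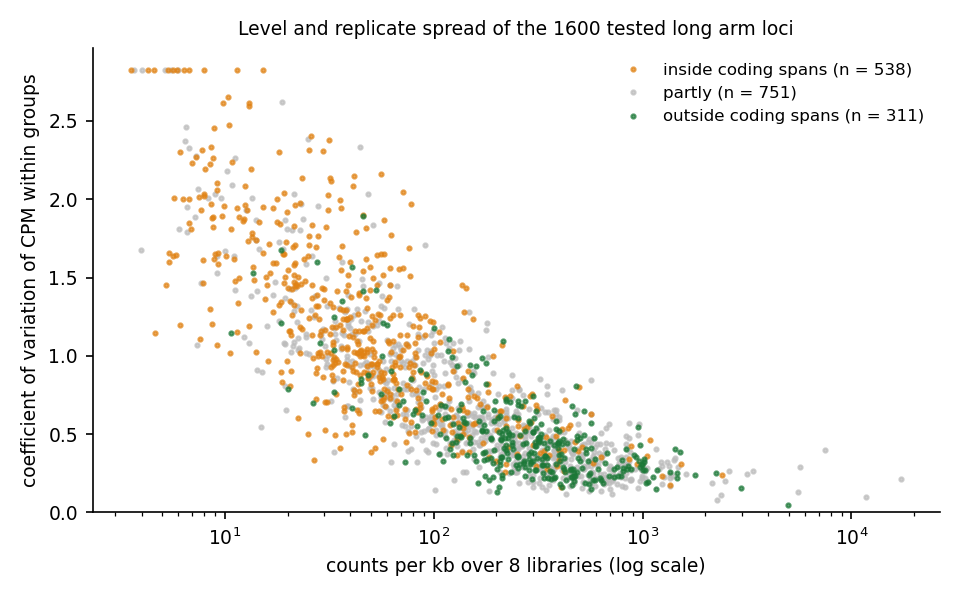
Coefficient of variation of CPM within groups (y axis) against counts per kb over 8 libraries (x axis, log scale) for the 1600 long arm loci with at least 10 counts, coloured by position inside (orange), partly inside (grey) or outside (green) coding gene spans. The orange points gather at the upper left, with a median coefficient of 1.07, and the green ones at the lower right, with 0.424.

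The summed level of the long arm loci overlapped between −Fe and +Fe exudates. The long arm loci took 1.30, 1.68, 1.39 and 1.11% of the counts of −Fe libraries, against 1.32, 1.72, 1.6 and 1.65% of those of +Fe libraries. The −Fe libraries 1 and 4 lay below every +Fe library, but −Fe library 2 lay above all but the highest of them, so the groups overlapped. The means were 1.37 ± 0.239% in −Fe and 1.57 ± 0.174% in +Fe libraries (SD, n = 4 each), a difference of −0.198 percentage points (exact permutation test, two-sided, p = 0.286; the smallest p it allows is 0.0286). Without +Fe libraries 2 and 4 the difference was −0.0862 percentage points (exact permutation p = 0.667, where 4 against 2 libraries allow no p below 0.133). Taken over the counts of loci that overlap no tRNA or rRNA gene, the share was 7.70 ± 0.538% in −Fe and 7.80 ± 0.477% in +Fe libraries (exact permutation p = 0.714). Loci outside coding spans summed to 3809 ± 781 CPM in −Fe and 4652 ± 574 CPM in +Fe libraries and those inside to 1520 ± 225 and 1488 ± 174 CPM in the same order (SD, n = 4 each), with overlapping ranges.

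The mean number of long arm loci counted was higher in −Fe exudates, but the libraries of the groups overlapped. The −Fe libraries had a count at 1397, 1485, 1520 and 1405 of the 1632 loci, against 1425, 1236, 1387 and 1164 in the +Fe libraries. The +Fe libraries 2 and 4 were the lowest of all, while +Fe library 1 lay above both −Fe library 1 and −Fe library 4. The difference of means was 148.75 loci (exact permutation p = 0.114), it was 189.417 loci without +Fe library 1 (exact permutation p = 0.0286, the smallest possible) and 45.75 loci without +Fe libraries 2 and 4 (exact permutation p = 0.400, with 0.133 the smallest possible, so that this test could not pass 0.05). Both low libraries were the lowest in each kind of position. Of the loci wholly inside coding spans, 73.2, 82.2, 84.7 and 73.4% had a count in −Fe and 74.6, 53.8, 69.8 and 50.1% in +Fe libraries. For those partly in a coding span the shares were 90.1, 94.3, 96.7 and 90.5% in −Fe and 92.3, 84.4, 90.5 and 77.9% in +Fe libraries. For loci outside coding spans they were 97.1, 98.7, 99.7 and 98.4% in −Fe and 98.1, 94.2, 99.0 and 93.6% in +Fe libraries.

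**Figure D4:**
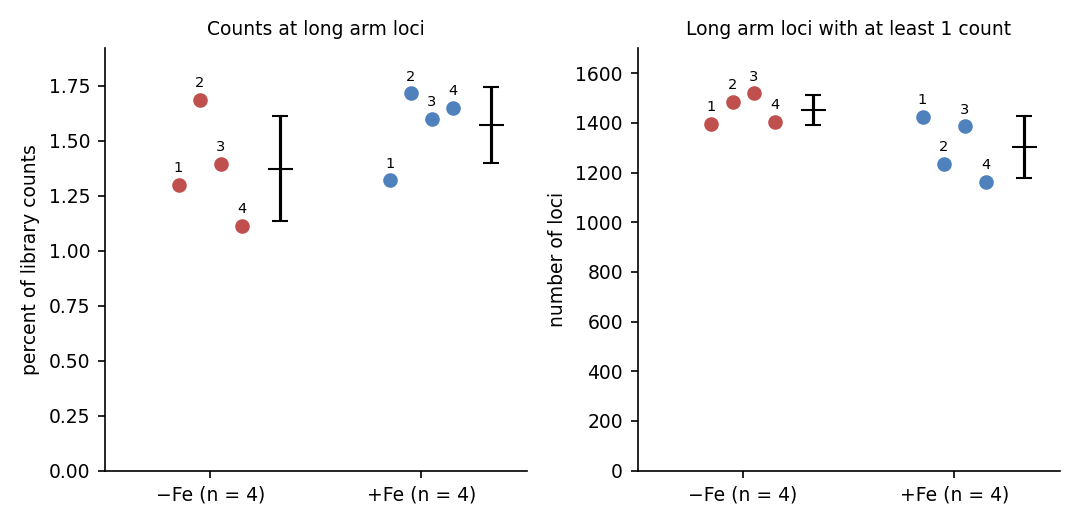
Percent of a library's counts at the long arm loci (left panel) and number of these loci with at least 1 count (right panel), for 4 −Fe libraries (red) and 4 +Fe libraries (blue), numbered by replicate, with the mean and SD in black. The shares overlap at means of 1.37% in −Fe and 1.57% in +Fe libraries, and +Fe libraries 2 and 4 are the 2 lowest in the right panel, at 1236 and 1164 loci.

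Counts in 1 condition alone were rare and low. Of the 1632 long arm loci, 68 had counts in −Fe libraries only and 12 in +Fe libraries only, none with more than 80 counts. Over all 20347 loci the numbers were 1811 and 473, so both patterns were less common at long arm loci. Libraries 2 and 4 of the +Fe group had the fewest loci counted, and their part in these numbers was not tested. With counts in all 4 −Fe and no +Fe library there was 1 locus, ath-b10r1-19573 (chromosome 1, 26389542–26392550), named after its values were seen. It overlaps SNL4, a SIN3-like gene, and EMB25, and had 8, 9, 9 and 19 counts in the −Fe libraries. No locus showed the mirror pattern. Over all 20347 loci these patterns were seen at 65 and 3 loci.

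No long arm locus passed edgeR's test between −Fe and +Fe. The thresholds were those of the study's methods, but the study applied them with DESeq2 and reported iron-regulated small RNAs in phloem exudates. Counts were tested over all 17722 loci with at least 10 counts, by edgeR's quasi-likelihood test, and a locus was called where the Benjamini-Hochberg adjusted p was under 0.1 and the log2 ratio of −Fe over +Fe was 0.5 or more in size. Called were 0 of 1600 long arm loci tested and 0% of all loci, with a smallest adjusted p of 0.644. At an unadjusted p under 0.05, 66 long arm loci (4.12%) were higher and 27 (1.69%) lower in −Fe, beside a background over all loci of 4.86% higher and 1.84% lower. At the same thresholds DESeq2, the study's tool, called 4 long arm loci (0.25%), 3 higher and 1 lower, beside 0.192% of all loci. Groups that did not overlap were seen with −Fe above +Fe at 33 loci (2.06%, background 1.64%) and with −Fe below +Fe at 23 loci (1.44%, background 1.32%). All of these shares lay near those over all loci. The median log2 fold change was 0.05 at long arm loci and 0.07 over all loci.

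Since neither share exceeded that over all loci, the 66 and the 27 loci are described only, with no test between them. The 66 that were higher had a median of 69 counts and 18 were counted in all 8 libraries, while 33 had no count in any +Fe library and so entered the test through their −Fe counts alone. By position, 30 of the 66 lay inside coding spans, 33 partly and 3 outside. The 27 that were lower had a median of 1831 counts, 24 were counted in all 8 libraries, and 3, 14 and 10 of them lay inside, partly in and outside coding spans. In shares, 5.58% of 538 tested inside loci were higher and 0.558% lower, while 0.965% of 311 tested outside loci were higher and 3.22% lower. Over all loci, 9.35% of those inside coding spans were higher and 1.82% lower, and 2.10% of those outside were higher and 1.87% lower. The split depends on scaling: with library totals in place of TMM factors, which moved the median log2 fold change of all loci by −0.19, 48 long arm loci were higher and 53 lower. With edgeR's own filter on low counts they numbered 27 and 23, and without +Fe libraries 2 and 4 they numbered 85 and 12.

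**Figure D5:**
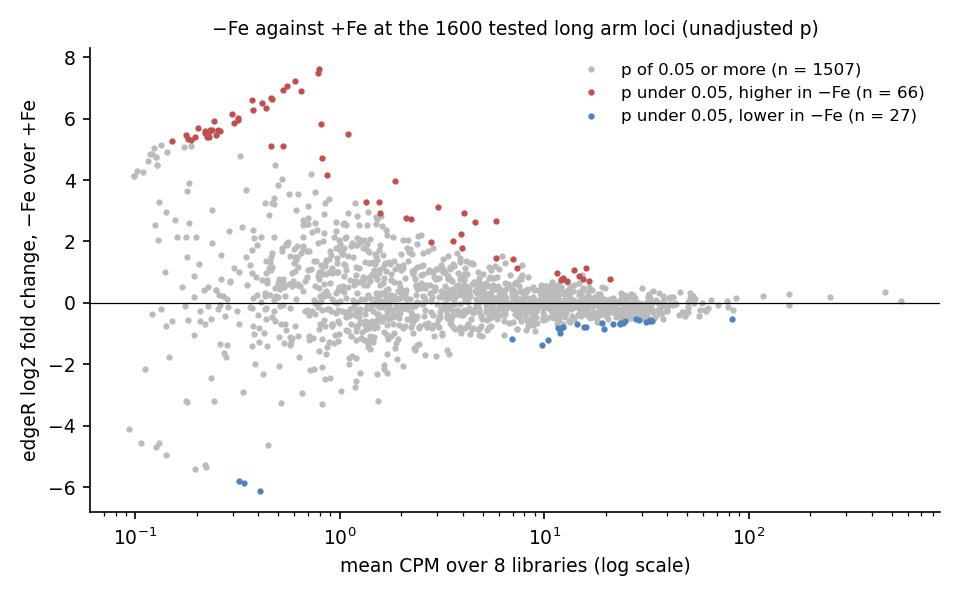
edgeR log2 fold change, −Fe over +Fe (y axis), against mean CPM over 8 libraries (x axis, log scale) for the 1600 tested long arm loci, with the 66 loci higher (red) and the 27 lower (blue) at an unadjusted p under 0.05. Most red points lie at low levels and most blue points at high ones, with medians of 69 and 1831 counts, and no locus passed after adjustment.

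Among the 5 loci with the smallest p and higher values in −Fe, the first was ath-b10r1-8130 (chromosome 3, 9705761–9709535), which overlaps AT3G26490 and PIRL2, a gene of a leucine-rich repeat protein. It had 3.4, 6.0, 6.07 and 12.5 CPM in −Fe libraries, against 0.708, 1.64, 2.16 and 0 CPM in +Fe libraries. Every −Fe value lay above every +Fe value. The log2 fold change was 2.93 (SE 0.83, edgeR adjusted p = 0.644; exact permutation p = 0.0286). DESeq2 gave an adjusted p of 0.0540, and over all alternatives the adjusted p ranged from 0.0540 to 1.000. This locus and the others of smallest p below were picked by their edgeR p in these same data. A permutation p of 0.0286 is unadjusted, is the smallest possible and follows from groups that do not overlap, so it adds no support.

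The second was ath-b10r1-2280 (chromosome 4, 11472689–11475547), with 12.2% of its length in AT4G21570. It had 11.2, 11.3, 6.58 and 10.5 CPM in −Fe libraries, against 1.56, 0.0966, 5.36 and 0.0957 CPM in +Fe libraries. The groups did not overlap, although −Fe library 3 and +Fe library 3 were close to each other, and +Fe libraries 2 and 4 had 1 count each. The log2 fold change was 2.67 (SE 0.77, edgeR adjusted p = 0.644; exact permutation p = 0.0286, unadjusted and the smallest possible). Without +Fe libraries 2 and 4 it was 1.72.

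Another 2 of the 5 lie wholly inside 1 gene each. The locus ath-b10r1-10219 (chromosome 3, 20776305–20778786) is inside SZF1, which encodes a salt-inducible zinc finger protein, and had 20.8, 30.1, 19.8 and 15 CPM in −Fe libraries, against 14.1, 11.0, 14.4 and 3.54 CPM in +Fe libraries. The groups did not overlap, by a margin of less than 1 CPM, and the log2 fold change was 1.13 (SE 0.35, edgeR adjusted p = 0.644). Without +Fe libraries 2 and 4 it was 0.67. The locus ath-b10r1-9754 (chromosome 3, 17907857–17910524) is inside BT2, a gene of a BTB and TAZ domain protein, and had 12.2, 29.2, 18.7 and 13.4 CPM in −Fe libraries, against 12.7, 11.7, 6.85 and 7.18 CPM in +Fe libraries. Here −Fe library 1 lay below +Fe library 1, and the log2 fold change was 1.06 (SE 0.34, edgeR adjusted p = 0.644). The remaining locus, ath-b10r1-5613 (chromosome 2, 11990908–11994412; AT2G28130), had 11, 0, 9 and 60 counts in −Fe libraries and none in +Fe libraries. Most of its counts came from −Fe library 4, and the groups overlapped at 0 (exact permutation p = 0.143). The −Fe mean was 6.27 times the limit of 3 counts per +Fe library that a 0 allows. That ratio leaves out the spread between replicates, and it was 2.37 without −Fe library 4. DESeq2 called this locus with an adjusted p of 0.0994, beside a range of 0.0994 to 1.000 over its alternatives, and it entered the test through its −Fe counts alone.

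Both further loci called by an alternative were higher in −Fe, and they are named after their values were seen. The locus ath-b10r1-2794 (chromosome 4, 15298141–15300808; AT4G31570), called by DESeq2, had 34, 21, 8 and 11 counts in −Fe libraries and 1, 0, 0 and 0 in +Fe libraries, with no overlap. It reached the minimum of 10 counts for testing through its −Fe counts alone. The locus ath-b10r1-7914 (chromosome 3, 8508531–8513363), which overlaps HGL1 and AT3G23650, had 27, 40, 65 and 129 counts in −Fe libraries and 0, 32, 0 and 1 in +Fe libraries. Its groups overlapped through +Fe library 2, and it was called by edgeR only without that library.

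Among the 5 with the smallest p and lower values in −Fe, 3 overlapped no listed gene. The first, ath-b10r1-3482 (chromosome 2, 896721–899559; no listed gene), had 4.44, 4.81, 4.89 and 4.63 CPM in −Fe libraries, against 6.66, 19.4, 12.1 and 20.7 CPM in +Fe libraries. The −Fe values lay close together and below all +Fe values, of which libraries 2 and 4 were the highest. The log2 fold change was −1.38 (SE 0.41, edgeR adjusted p = 0.644; exact permutation p = 0.0286, unadjusted and the smallest possible). Without +Fe libraries 2 and 4 it was −0.83. DESeq2 called this locus with an adjusted p of 0.0870, beside a range of 0.0870 to 1.000 over its alternatives. The level was thus 4.69 ± 0.201 CPM in −Fe and 14.7 ± 6.56 CPM in +Fe libraries (SD, n = 4 each).

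The locus ath-b10r1-2201 (chromosome 4, 10896620–10900607) overlaps GALS3, a gene of a cell wall galactan synthase. It had 14.9, 14.5, 12.3 and 9.42 CPM in −Fe libraries, against 17.6, 39.9, 19.2 and 29.7 CPM in +Fe libraries. The groups did not overlap, and +Fe libraries 2 and 4 were again the highest. The log2 fold change was −0.84 (SE 0.28, edgeR adjusted p = 0.644; exact permutation p = 0.0286, unadjusted and the smallest possible). Without those libraries it was −0.42. The locus ath-b10r1-14018 (chromosome 5, 18936925–18939361), at AT5G46670 and the pseudogene AT5G46665, had 6.89, 4.89, 8.18 and 2.58 CPM in −Fe libraries, against 6.52, 13.4, 14.4 and 26.6 CPM in +Fe libraries. Its groups overlapped at +Fe library 1 alone, and the log2 fold change of −1.21 was −0.74 without +Fe libraries 2 and 4 (edgeR adjusted p = 0.644 with all 8 libraries).

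Both other loci lie outside genes. The locus ath-b10r1-18387 (chromosome 1, 19145536–19148657) had 7.18, 11.9, 7.50 and 3.42 CPM in −Fe libraries, against 13.5, 12.8, 12.4 and 26.5 CPM in +Fe libraries, with no overlap and 1 high +Fe library. Its log2 fold change was −0.97 (SE 0.37, edgeR adjusted p = 0.644), and without +Fe libraries 2 and 4 it was −0.74. The locus ath-b10r1-10481 (chromosome 3, 22660178–22662630) had 12.9, 21.2, 16.0 and 11.2 CPM in −Fe libraries, against 19.1, 37.8, 31.3 and 25 CPM in +Fe libraries. It overlapped between the groups, with a log2 fold change of −0.69 (SE 0.26, edgeR adjusted p = 0.644). Of the loci with the most counts, the one with an unadjusted edgeR p under 0.05 was ath-b10r1-19068 (chromosome 1, 23118037–23123456), at the pseudogene AT1G62460. It had 64, 88.4, 69.1 and 34.5 CPM in −Fe libraries, against 88.1, 105, 95.7 and 120 CPM in +Fe libraries. The values of −Fe library 2 and +Fe library 1 nearly coincided, all others were apart, and the log2 fold change was −0.51 (SE 0.21, edgeR adjusted p = 0.644).

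Genes of iron homeostasis, small RNA pathways and trans-acting siRNAs rarely overlapped the long arm loci. Of 20 iron homeostasis genes, 8 overlapped a listed locus, 7 of these overlapped a locus with counts, and 1, BTS, overlapped a long arm locus. BTS (BRUTUS) encodes an E3 ubiquitin ligase that binds iron and restrains the iron deficiency response. Its locus ath-b10r1-7588 (chromosome 3, 6273971–6276084), wholly inside the gene, had 8, 39, 16 and 0 counts in −Fe libraries and 0 in all 4 +Fe libraries. The groups thus overlapped at 0, and the exact permutation p was 0.143 (edgeR adjusted p = 0.644). The −Fe mean was 5.11 times the limit of 3 counts per +Fe library that a 0 allows. That ratio leaves out the spread between replicates, and it was 2.77 without −Fe library 2, which held most of the counts. The locus entered the test through its −Fe counts alone. A second locus in BTS, ath-b10r1-7589, which at 1455 nt is not a long locus, had 3, 19, 5 and 19 counts in −Fe libraries and 0, 58, 15 and 0 in +Fe libraries, so the gene as a whole was counted in both conditions. Of 22 genes of the silencing machinery, such as DCL1 and AGO1, 7 overlapped a counted locus and none a long arm locus, and the 8 trans-acting siRNA genes, whose transcripts are cut into phased siRNAs, all had loci that were not among the long arm loci.

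Genes of photosynthesis were among the long arm loci. Of the 10 mesophyll markers, 3 overlapped a long arm locus: RCA, which encodes Rubisco activase, at ath-b10r1-6247, the chlorophyll-binding protein gene CAB3 at ath-b10r1-16718 and GAPA, of chloroplast glyceraldehyde-3-phosphate dehydrogenase, at ath-b10r1-8152. The RCA locus (chromosome 2, 16570074–16573513) had 790, 752, 435 and 556 counts in −Fe libraries, against 769, 825, 704 and 412 in +Fe libraries. It was counted in every library at a like level, 53.2 ± 17.2 CPM in −Fe and 56.5 ± 16.9 CPM in +Fe exudates (SD, n = 4 each; edgeR adjusted p = 0.999). The phloem gene OPS lay at the long arm locus ath-b10r1-7038, which had 12, 39, 1 and 12 counts in −Fe libraries and 29, 0, 0 and 1 in +Fe libraries.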

How the data were processed

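Small RNA libraries (Lexogen kit, no size selection) were made from total RNA of phloem exudates. Adapters were trimmed by the authors (Cutadapt), and ShortStack was used for alignment to TAIR10 (build per the submitters' processing notes) and for the raw read counts per locus that the authors deposited. Versions and the treatment of multiply mapped reads are not given in the sources used here. Each library was assigned to −Fe or +Fe from its label. Members and gene lists were chosen with earlier results of these data known. Named loci were those with the most counts, in total (10) and per kb (10), the smallest edgeR p in each direction (5), the greatest length (5), an overlap of at least 1 nt with a listed gene, or a length at the limit (2). Loci at cell type markers and loci called by an alternative are named as well.

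CPM were computed from library totals. The main test was edgeR 4.0.16 (R 4.3.3; quasi-likelihood F-test, TMM factors, a minimum of 10 counts per locus summed over 8 libraries, condition as the only term), fitted on all loci with Benjamini-Hochberg adjustment. The SE of a log2 fold change is approximate and was derived from the F statistic of that test, so it is not independent of the p. Exact permutation tests over the 70 regroupings of 4 against 4 and exact sign flips over 8 libraries were run in Python 3.11.15 with scipy 1.17.1, and all were two-sided. On simulated counts for 17722 loci in the −Fe against +Fe comparison, the test recovered 95 of the 200 loci given a 4-fold change and 156 of the 200 given a 16-fold change. The changed loci were drawn only from those above a minimum mean CPM, so recovery at lower levels was not measured. Alternatives were DESeq2 1.42.0, a replicate block, other scaling factors and filters, a stricter threshold of 0.05, other length limits and intervals, thinning to the lowest library total, and each library left out in turn.

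Gene names and overlaps came from the RefSeq table of TAIR10.1, whose coordinates are not printed. As a check of the build, the positions of 247 of 325 miRNA precursors were identical in both, and 78 lay 1 nt lower. Library totals of 10347644 to 14116739 counts gave the limits for a count of 0. No genome sequence was used here, so no locus sequence is shown.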

Additional observations from a re-analysis of the deposited data

Results flagged for a closer look

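There were 3 values that lay far from the other libraries of their group. Each passed Dixon's 95% limit for 4 values. In all, 72 groups were examined, 60 for the 30 named loci and 12 for 6 summed measures, and chance flags about 1 in 20 groups. The locus ath-b10r1-11917 (AT5G25560) had 58.1 CPM in −Fe library 4, against 73.1 to 75.3 CPM in the other −Fe libraries. The locus ath-b10r1-2280 (AT4G21570) had 6.58 CPM in −Fe library 3, against 10.5 to 11.3 CPM in the other −Fe libraries, and so came closest to the +Fe values. The locus ath-b10r1-18387 had 26.5 CPM in +Fe library 4, against 12.4 to 13.5 CPM in the other +Fe libraries.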

How the results depend on the processing

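The difference in summed share kept its direction and did not pass the test under all 7 alternatives (−0.198 to −0.0862 percentage points) and with each library left out (−0.302 to −0.112). The number of loci counted differed by 45.75 to 199 under the alternatives and by 102.417 to 189.417 with each library left out, and passed 0.05 only without +Fe replicate 1 (189.417). Without +Fe replicates 2 and 4 it could not have passed, since the smallest p is then 0.133. The difference from short arm loci stayed positive in all runs (0.173 to 1.26 CPM per kb; 0.295 to 0.450 with each library left out). Its highest value came from a length minimum of 3000 nt, which changes the rule itself. Length both splits these loci and divides their counts, so these runs do not make the measure independent of the rule. The difference from long pericentromeric loci turned to −0.218 with intervals widened by 1 Mb and was 0.0182 to 0.0816 with each library left out. No long arm locus was called by edgeR with all libraries and no block, 4 were called by DESeq2, 1 by edgeR with the replicate block and 1 by edgeR without +Fe replicates 2 and 4, and 0 to 1 with each library left out (1 without +Fe replicate 2). At an unadjusted p under 0.05, the loci higher in −Fe numbered 27 with edgeR's own filter on low counts, where fewer loci were tested (1247), and 39 to 109 with each library left out (39 without −Fe replicate 3, 109 without +Fe replicate 1). Those lower in −Fe numbered 50 with DESeq2, 53 with library totals, 12 without +Fe replicates 2 and 4, and 16 to 37 with each library left out (17 without −Fe replicate 1, 16 without −Fe replicate 4). The cause of these moves was not tested. The loci called by an alternative were ath-b10r1-8130, ath-b10r1-5613, ath-b10r1-2794 and ath-b10r1-3482 (DESeq2), ath-b10r1-2280 (replicate block) and ath-b10r1-7914 (without +Fe replicate 2, alone or with replicate 4).

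Libraries of the 2 conditions share replicate numbers, but deviations of same-numbered libraries correlated at −0.00185 to 0.0492, and 1 number, 3, correlated best with its own. With the replicate block 1 long arm locus was called, ath-b10r1-2280 (edgeR adjusted p = 0.00856, range 0.00856 to 1.000 over its alternatives), and 76 were higher and 25 lower at an unadjusted p under 0.05. The block p was 0.125 for the summed share, the smallest 4 pairs allow, and 0.250 for the number of loci counted (exact sign-flip permutation test).

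Depth limits what low loci can show: 361 of the 1600 tested had 10 to 100 counts, and 1.11% of these were counted in all 8 libraries.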
